A study of Mus musculus with 3 samples.

Results

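Interleukin-6, LIF and oncostatin M belong to a family of cytokines that signal through the shared receptor chain gp130, encoded by Il6st, and mainly through the kinases JAK1 and JAK2 and the transcription factor STAT3. The colony-stimulating factors M-CSF, GM-CSF and G-CSF, encoded by Csf1, Csf2 and Csf3, support the survival, growth and differentiation of macrophages, dendritic cells and granulocytes. Activated myeloid cells make several of these factors, and interleukin-6 is a typical product of dendritic cells given a Toll-like receptor ligand. The 6 genes described here, Il6, Lif, Osm, Csf1, Csf2 and Csf3, were taken by name, 3 from the IL-6 family and 3 colony-stimulating factors, and found through the gene symbols of the array's annotation. They had 10 probes in all, and each of the 6 had at least 1 probe above background on at least 1 array, among 8055 such named genes.

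RNA was measured on 3 Illumina MouseRef-8 v2 bead arrays, 1 for each of 3 dendritic cell preparations, so there were no replicates and no test, and the number of arrays limits every value. All 3 preparations were grown for 8 days from bone marrow of DBA mice aged 6 weeks, in medium that held 20 ng/ml GM-CSF and 2 ng/ml IL-4. The imDC preparation was the immature culture, for which the labels name no stimulus and no time of harvest. The tDC preparation, labelled semi-mature or tolerogenic, was given TNF-alpha at 10 ng/ml with type II collagen at 50 µg/ml for 4 h. The mDC preparation, labelled fully mature, was given lipopolysaccharide (LPS) at 1 µg/ml with the same amount of collagen for 24 h. Stimulus and hours therefore cannot be told apart. The labels name no sort of the cells, and the number of mice behind a preparation is not given in the sources used here. GM-CSF protein, the product of Csf2, was part of every culture, and the arrays measured the RNA of the cells only.

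A probe was taken as detected on an array at a detection p under 0.01, the p-value by which the scanner software compares a probe with negative controls. Of 25697 probes, 11006 were detected on imDC, 10764 on tDC and 10673 on mDC, with median signals of 132, 125 and 125 intensity units. Levels were compared as log2 values after background correction and quantile normalization, and 2-fold was the mark for calling a gene higher or lower. With no replicates, the spread at hand was that between probes. In 1303 genes with 2 probes detected on all arrays, the log2 differences from the 2 probes lay apart by a median of 0.12 in tDC minus imDC, 0.15 in mDC minus imDC and 0.13 in mDC minus tDC. The 95th percentiles of that gap were 0.43, 0.56 and 0.44. This scatter leaves out the variation between cultures.

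The sequences around the annotated starts of Il6, Csf1 and Csf2 are shown because these are the 3 members that differed by 2-fold, each with a different profile over the 3 arrays. Windows of 300 bases, 250 before and 50 after the start, were at hand for 4 of the 6 members from RefSeq, assembly GRCm38.p6, which is the C57BL/6J genome and not that of the DBA strain used here. Capitals mark matches to motifs, on either strand, of transcription factors that act on cytokine genes. They are the NF-kB consensus of 10 letters, AP-1 (TGANTCA), CRE (TGACGTCA), C/EBP (TTGNNCAA), STAT (TTCNNNGAA) and the TATA box (TATAAA). The strands below are those of the genes, 5′ to 3′.
Il6, chr5:30012864-30013163, plus strand: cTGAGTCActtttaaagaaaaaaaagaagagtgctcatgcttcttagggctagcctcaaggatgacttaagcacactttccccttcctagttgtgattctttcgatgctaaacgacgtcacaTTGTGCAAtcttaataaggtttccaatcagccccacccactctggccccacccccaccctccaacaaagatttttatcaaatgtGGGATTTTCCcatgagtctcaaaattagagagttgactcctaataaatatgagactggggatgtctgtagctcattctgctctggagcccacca
Csf1, chr3:107760420-107760719, minus strand: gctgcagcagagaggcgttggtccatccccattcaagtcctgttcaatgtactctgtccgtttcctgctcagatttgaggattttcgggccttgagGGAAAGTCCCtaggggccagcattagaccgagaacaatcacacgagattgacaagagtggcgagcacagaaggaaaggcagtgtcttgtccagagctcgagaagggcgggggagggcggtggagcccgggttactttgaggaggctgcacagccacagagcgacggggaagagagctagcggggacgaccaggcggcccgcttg
Csf2, chr11:54249850-54250149, minus strand: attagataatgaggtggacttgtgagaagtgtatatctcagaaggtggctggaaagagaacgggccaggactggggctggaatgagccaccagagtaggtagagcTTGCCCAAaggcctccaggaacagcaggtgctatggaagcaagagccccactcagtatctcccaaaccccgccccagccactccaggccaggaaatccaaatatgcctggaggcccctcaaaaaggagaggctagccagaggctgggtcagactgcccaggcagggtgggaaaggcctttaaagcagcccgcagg

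The Il6 window held 3 matches, none of which overlapped. The NF-kB match GGGATTTTCC began 44 bases before the start, the C/EBP match 128 bases and the AP-1 match 249 bases before it. The Csf1 window held 1 match, an NF-kB match on the reverse strand that began 154 bases before the start. The Csf2 window held 1, to C/EBP, 145 bases before its start. The Csf2 gene record lists a curated and a predicted transcript, and which of them sets this start was not settled, so the window may not lie at the start of the curated one. The window of Lif, not printed, held an NF-kB match 178 bases and an AP-1 match 228 bases before its start. Over all 32851 windows of this length, 8.46% held the NF-kB consensus, 7.81% AP-1, 6.40% C/EBP, 8.30% STAT, 13.6% the TATA letters and 1.79% the CRE. No member window held the CRE, STAT or TATA letters, which says only that these letters are not in these windows. A match is a description of the letters and not a site shown to be bound.

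**Figure D1:**
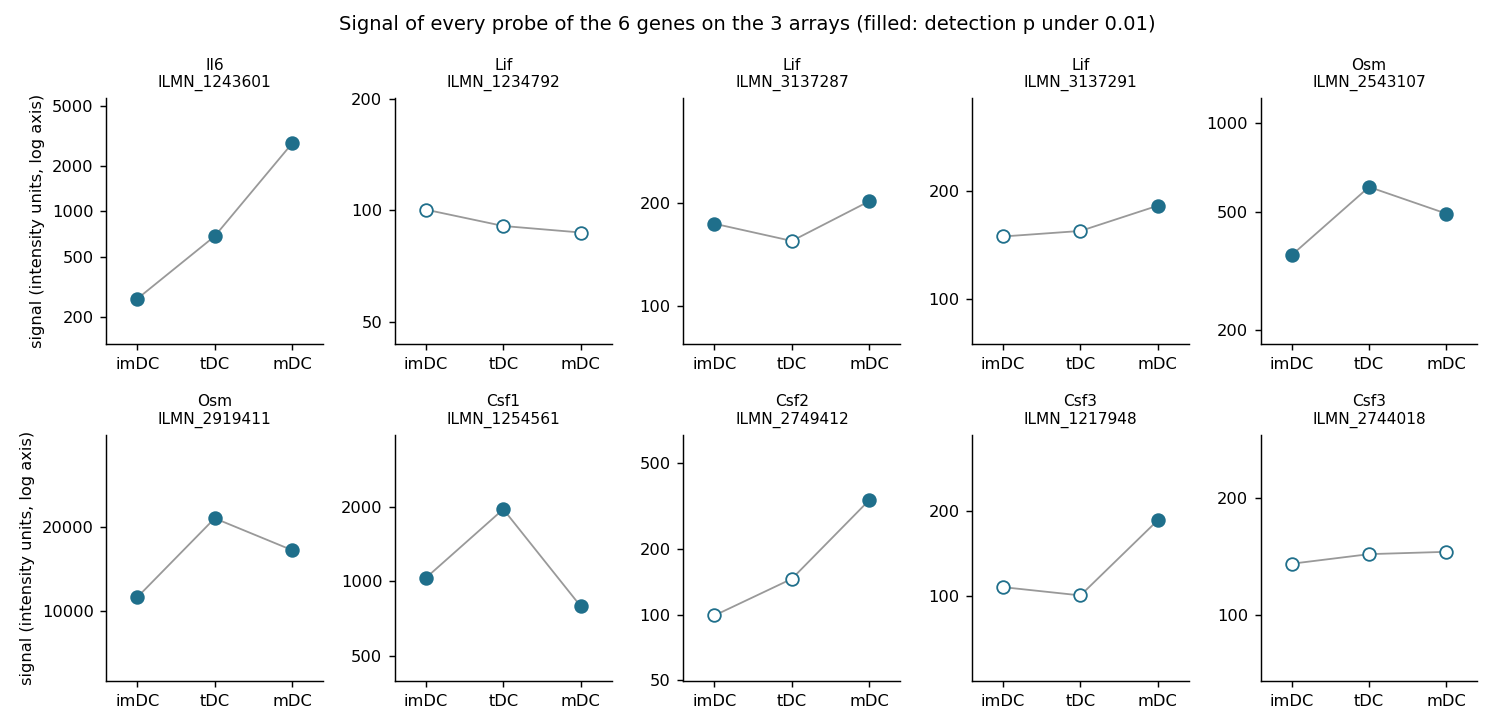
Signal of all 10 probes of the 6 genes, in intensity units on a log axis whose range differs between panels, on the imDC, tDC and mDC arrays (1 array each, so no error bars). Filled points are detected at a detection p under 0.01; Il6 goes from 264 to 2820 units, both Osm probes and Csf1 are highest on tDC, and Csf2 and 1 of 2 Csf3 probes are detected on mDC only.

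Il6, on chromosome 5 from base 30013114 to 30019975, encodes interleukin-6, which drives acute-phase responses and T and B cell differentiation. Its single probe gave signals of 264 on imDC, 685 on tDC and 2820 on mDC, with a detection p of 0 on all 3 arrays. Each step was upward, and imDC was lowest but above background. On the normalized scale the levels were 7.36, 9.25 and 11.46 in log2. The tDC array was 3.70-fold higher than imDC, a log2 difference of 1.89. The mDC array was 17.2-fold higher than imDC (4.11) and 4.66-fold higher than tDC (2.22). In bulk RNA, more cells that express a gene and more RNA per cell cannot be told apart, which holds for every value here.

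Among genes detected on both arrays Il6 ranked 36 of 7406 from the highest difference in tDC minus imDC. It ranked 19 of 7257 in mDC minus imDC and 47 of 7289 in mDC minus tDC. The other processing settings gave log2 differences of 1.48 to 1.89, 3.55 to 4.11 and 2.08 to 2.22.

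Csf1, on chromosome 3 from 107741048 to 107760469, encodes M-CSF, the growth factor of macrophages and monocytes. Its single probe gave 1033 on imDC, 1955 on tDC and 793 on mDC, all detected. The tDC array was the high one, and the other two lay close together. The log2 difference was 1.08 in tDC minus imDC, or 2.11-fold higher, rank 179 of 7406 from the highest. In mDC minus tDC it was -1.33, or 2.51-fold lower, rank 84 of 7289 from the lowest. In mDC minus imDC it was -0.25, which is within the 95th percentile of 0.56 for 2 probes of a gene. Csf1 reached 2-fold in both of the first comparisons under every setting, with the lowest tDC value at 1.01 without background correction.

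Osm, on chromosome 11 from 4236785 to 4241026, encodes oncostatin M, which monocytes, macrophages and neutrophils release early on activation. In mouse hematopoietic cells it is a known STAT5 target induced by GM-CSF. The brighter of its probes gave 11168 on imDC, 21476 on tDC and 16493 on mDC. The dimmer gave 357, 608 and 494, and all were detected. Both probes placed the arrays in the same order, with tDC highest and imDC lowest. The tDC minus imDC difference was 0.90 (1.87-fold) for the brighter probe, which stands for the gene, and 1.09 (2.13-fold) for the dimmer, so the 2-fold mark fell between them. The mDC minus imDC differences were 0.55, just within the 95th percentile of 0.56 for probe scatter, and 0.83, beyond it. The mDC minus tDC differences, -0.36 and -0.26, lay within the 95th percentile of 0.44. That scatter is not the error of a difference between arrays. With 1 array each, the order of tDC and mDC is not settled.

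Lif lies 16.5 kb from Osm on chromosome 11, from 4257568 to 4272514, with no annotated gene between them, and encodes leukemia inhibitory factor, which acts through gp130 and the LIF receptor. Its brightest probe gave 174 on imDC, 155 on tDC and 202 on mDC, with detection p of 0.00125, 0.0113 and 0. The tDC array thus missed the detection threshold narrowly and the imDC array passed it narrowly. The mDC minus imDC difference was 0.66, or 1.58-fold. A second probe gave 149, 154 and 182 and was detected on mDC only, where it was at least 1.57-fold higher than imDC. The third probe gave 101, 90.8 and 87.2 and was detected on no array. In tDC minus imDC the bound of the brightest probe was -0.13, under the probe scatter. Lif differed by 2-fold in no comparison.

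Csf2, on chromosome 11 from 54247270 to 54249899, encodes GM-CSF, and Il3 is its neighbour at 15.2 kb. Its single probe gave 99.0 on imDC, 146 on tDC and 336 on mDC, with detection p of 0.484, 0.0138 and 0. It was detected on mDC only, and the tDC array lay just outside the threshold. Set against the lowest detected level on the other array, or its own level there if higher, Csf2 was at least 4.01-fold higher in mDC than in imDC and at least 3.69-fold higher than in tDC. Without background correction these bounds were 2.35-fold and 2.26-fold. No fold is given for tDC against imDC, where neither array detected it. With detection at a p under 0.05, tDC counted as detected and was at least 1.34-fold higher than imDC, and the mDC minus tDC difference was then measured at 2.08. Il3, which encodes a related growth factor, gave 83.3, 85.3 and 89.7 and was detected on no array. Detection on mDC only was the pattern of 171 of 8055 genes, or 2.12%.

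Csf3, on chromosome 11 from 98700183 to 98703631, encodes G-CSF, which drives neutrophil production. One of its probes gave 108 on imDC, 101 on tDC and 186 on mDC, with detection p of 0.269, 0.308 and 0. It was detected on mDC only, at least 1.63-fold above imDC and above tDC by at least 0.58 in log2. The other gave 136, 143 and 145, with detection p of 0.0514, 0.0163 and 0.0201, so it was detected on no array and lay nearly level. The 2 probes of Csf3 thus differed in whether mDC stood out, and the bounds did not reach 2-fold in any setting.

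In tDC against imDC, 4 of the 6 members were detected on at least 1 of the pair and 2 were higher at 2-fold, Il6 and Csf1, with 0 lower. Over all genes 2.88% were higher and 2.02% lower. In mDC against imDC all 6 members were detected on at least 1 of the pair and 2 were higher, Il6 and Csf2, with 0 lower, where 6.16% of all genes were higher and 5.96% lower. In mDC against tDC 2 were higher, again Il6 and Csf2, and 1 was lower, Csf1, where 3.44% of all genes were higher and 2.80% lower. With 6 genes such counts are descriptions. The comparisons share arrays, so they are not independent of each other. The median log2 difference of members detected on both arrays was 1.08 over 3 genes in tDC minus imDC and 0.60 over 4 genes in mDC minus imDC, against 0.00 and -0.01 over all genes. It was -0.36 over 3 genes in mDC minus tDC, against -0.02. Il6, Csf2, Csf3 and Lif had their highest level on mDC, as 34.7% of all genes did, and Csf1 and Osm on tDC, as 26.8% did.

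**Figure D2:**
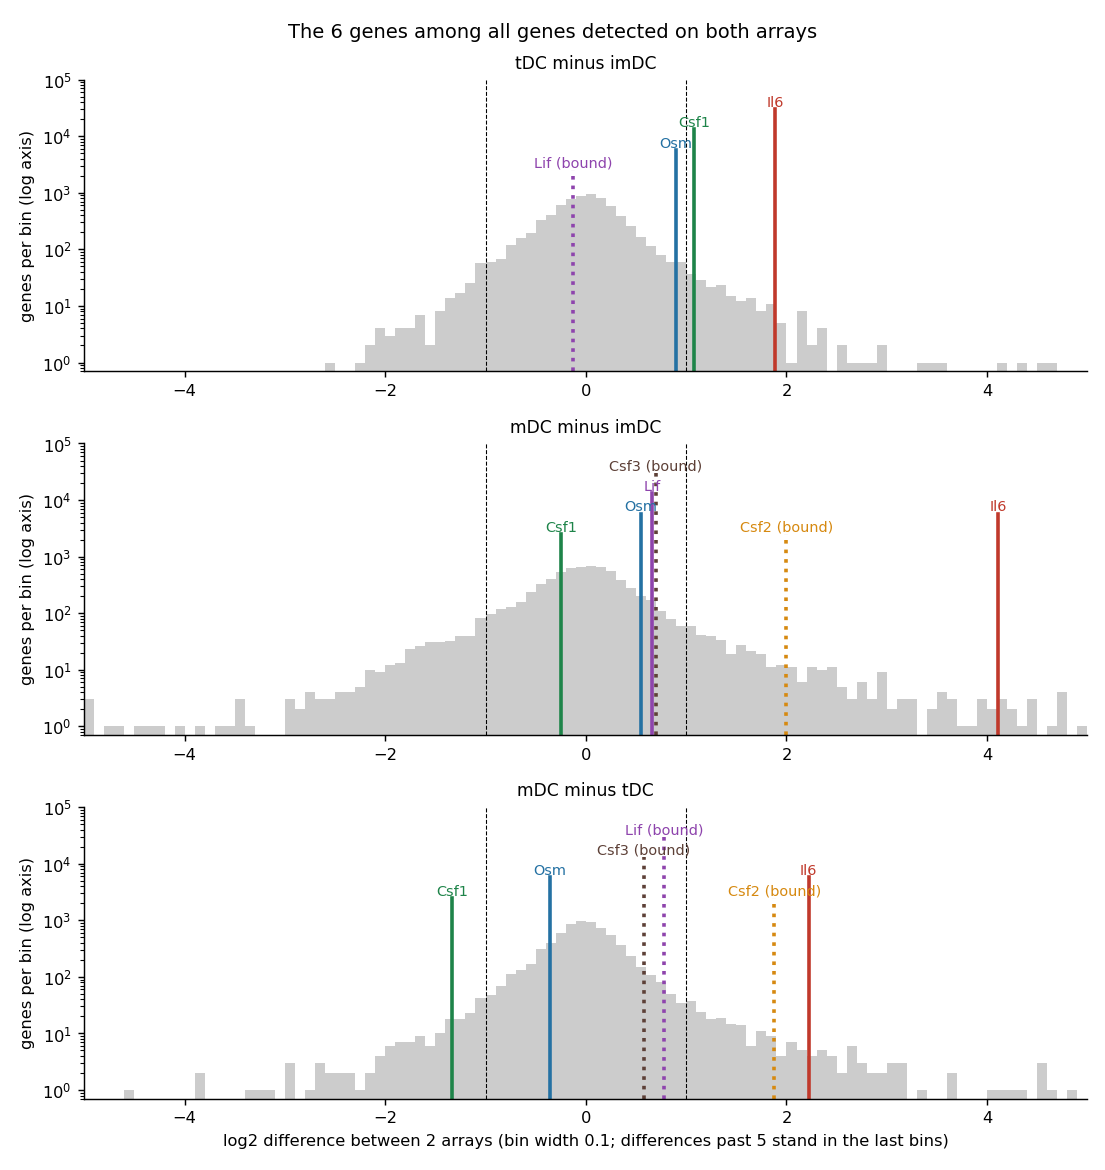
Log2 differences between pairs of arrays (x axis) for all named genes detected on both, as counts per bin on a log axis in grey, with each member as a coloured line, dotted for a bound; dashed lines mark 2-fold and differences past 5 stand in the last bins. Il6 stands to the right of 2-fold in all 3 panels, and Csf1 stands above it at 1.08 in tDC minus imDC and beyond it at -1.33 in mDC minus tDC.

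The genes whose profile over the 3 arrays was most like that of a member were found by the larger of the distances in the 2 differences from imDC, over 7940 genes. Nearest to Il6 were Osbpl3, Wfdc21 and Gpr18, within 0.05, 0.15 and 0.16 on the log2 scale. For Csf1 they were Hmgcs1 (0.05), an enzyme of cholesterol synthesis, Gdf9 (0.06), which was not detected on mDC, and Aard (0.12). For Csf2 they were Kalrn (0.07), Gsta3 (0.13) and Tmem45a2 (0.21), a likeness that rests on Csf2 values below background on imDC and tDC. Within 0.25 lay 3 genes for Il6, 10 for Csf1 and 4 for Csf2. With 3 arrays a near profile says nothing of shared control.

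Among the other ligands of the IL-6 family, 6 of 8 were named on the array and 2 were detected. Ebi3, a subunit shared by interleukin-27 and interleukin-35, gave 3710 on imDC, 6440 on tDC and 11500 on mDC. Its log2 differences were 0.81 in tDC minus imDC and 1.64 in mDC minus imDC. Il27, the other subunit of interleukin-27, gave 117, 131 and 213, was detected on mDC only, and was higher than imDC by at least 1.03 in log2. That bound fell to between 0.54 and 0.92 in 4 of the other settings. Il11, Cntf, Clcf1 and Ctf1 were detected on no array, with signals of 81.6 to 142 over 6 probes. None of 6 further growth factors of blood cells on the array, Il3, Il5, Il34, Flt3l, Kitl and Epo, was detected, with signals of 83.3 to 129.

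Of 7 receptor genes of the IL-6 family on the array, 4 were detected on no array. Il6st, which encodes gp130, gave 101 on imDC, 90.0 on tDC and 89.2 on mDC from its single probe, and Il6ra, the interleukin-6 receptor, gave 148, 116 and 110. Neither was detected, nor were Lifr and Cntfr. Osmr, the oncostatin M receptor, gave 169, 137 and 134 and was detected on imDC only, with bounds of -0.05 and -0.01 for tDC and mDC. Il27ra gave 414, 415 and 261, and its mDC minus imDC difference was -0.66. A second Il27ra probe gave 197, 171 and 149, also lowest on mDC, where it was not detected. In tDC minus imDC the first probe gave 0.14 and the second -0.18, so no direction is stated for that pair. Il31ra, part of the interleukin-31 receptor, gave 366, 239 and 153 and was not detected on mDC. It was lower there than on imDC by at least 1.74 in log2 (-1.74), and lower than on tDC by at least 1.05 (-1.05). The latter went to -0.59 without background correction. A probe below background sets only an upper limit on what that probe can see.

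Receptors of the colony-stimulating factors were detected on all 3 arrays, for 4 genes of the 5 listed, and Csf1r was not analysed here. Csf3r, the G-CSF receptor, gave 787 on imDC, 2050 on tDC and 1670 on mDC. A second detected probe gave 506, 1240 and 1110, and 3 further probes were below background on every array. Csf3r was higher in tDC than in imDC by 1.59 and in mDC by 1.33, and the second probe gave 1.58 and 1.48. Csf2ra, the GM-CSF binding chain, gave 6990, 5460 and 4030, lowest on mDC, with differences of -0.38 in tDC and -0.78 in mDC against imDC. Csf2rb, the chain shared by the receptors of GM-CSF, interleukin-3 and interleukin-5, gave 1950, 2240 and 1930 from its brightest probe. In tDC minus imDC that probe gave 0.27 whereas a second probe detected on all 3 arrays gave -0.34, so no direction is stated. A further Csf2rb probe, detected on imDC only, gave 163, 137 and 152. Csf2rb2, a close copy of Csf2rb in the mouse genome, gave 5380, 7560 and 6530 (0.48 in tDC minus imDC). The pair can share target RNA, so both are uncertain.

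**Figure D3:**
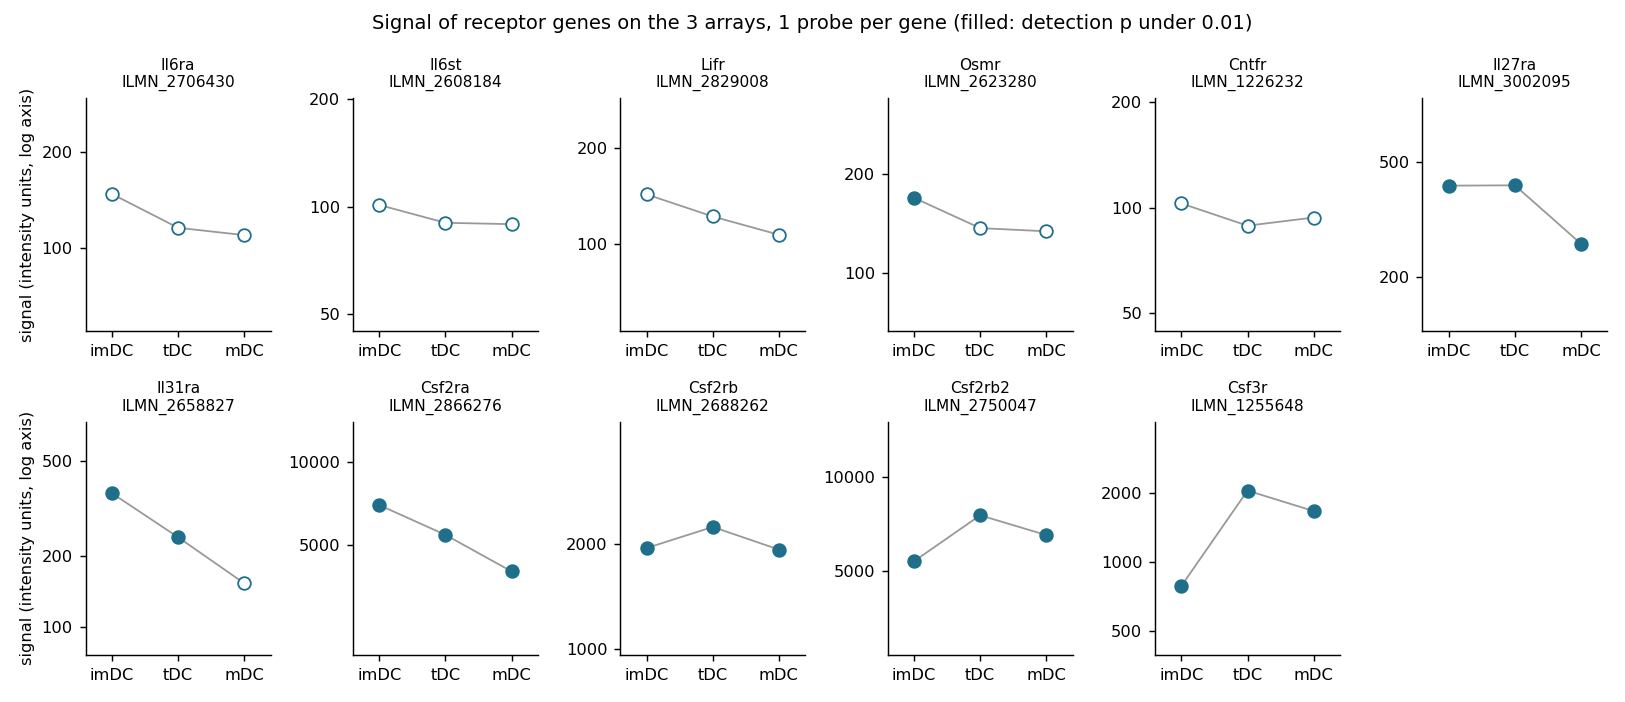
Signal of 11 receptor genes, 1 probe per gene, in intensity units on a log axis whose range differs between panels, on the imDC, tDC and mDC arrays (1 array each). Filled points are detected at a detection p under 0.01; Il6ra, Il6st, Lifr and Cntfr have open points only, and Csf3r is highest on tDC at 2050.

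Transcription factors known to act on cytokine promoters were described from a list of 17, of which 14 were detected. In tDC against imDC 2 of 13 were higher and 0 lower, with a median log2 difference of 0.58 over 12 genes against 0.00 over all genes, of which 2.88% were higher and 2.02% lower. With other settings Ets2 also passed 2-fold there (1.04 with median scaling and 1.03 with the authors' values), and Cebpa was lower (-1.27) with the looser detection. Nfkbiz, which encodes the nuclear IkB protein IkB-zeta that mouse macrophages need to induce Il6, gave 993 on imDC, 5990 on tDC and 6490 on mDC, and was higher in tDC by 2.76. Rel, an NF-kB subunit, gave 508, 1310 and 885 and was higher in tDC by 1.66. In mDC against imDC 4 of 14 were higher and 0 lower, namely Nfkbiz (2.92), Irf1 (1.16), Rel (1.12) and Junb (1.07), with a median of 0.75, where 6.16% of all genes were higher and 5.96% lower. Rel reached only 0.97 there without background correction. With the looser detection Nfkb2 passed 2-fold (1.03) and Cebpa was lower (-1.30). In mDC against tDC none of 13 differed by 2-fold as reported, and the median was -0.08, but Fos, at 0.97, reached 1.00 with median scaling. Il6 differed by 2.22 in that pair, and its relation to the RNA levels of these factors was not tested.

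Transcripts of Il6 and its relatives are short-lived, and proteins that bind AU-rich or stem-loop elements regulate them. Of 13 such regulators, not all of which speed decay, 8 were detected. Zc3h12a, the endonuclease Regnase-1 that degrades Il6 mRNA, gave 673 on imDC, 1450 on tDC and 1810 on mDC. It was higher by 1.32 in tDC and 1.71 in mDC against imDC, and it alone of the 8 differed by 2-fold. Over all genes 2.88% were higher and 2.02% lower in tDC against imDC, and 6.16% and 5.96% in mDC against imDC. Zfp36, which encodes tristetraprolin, gave 14800, 23100 and 21900, or 0.60 in both. The list medians were 0.16 and -0.05, over genes that do not all act in the same direction.

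Downstream of these receptors, 8 of 13 JAK, STAT and adaptor genes were detected. In mDC against imDC, where 6.16% of all genes were higher and 5.96% lower, 1 of the 8 reached 2-fold. This was Stat5a, which relays GM-CSF signals, at 1.01, with 0.96 to 0.99 in 4 other settings. Stat3 gave 2540 on imDC, 2680 on tDC and 3710 on mDC, with a difference of 0.63 in mDC minus imDC. Of 9 signal inhibitors 8 were detected. In mDC against imDC 2 were higher and 0 lower, beside 6.16% and 5.96% of all genes. Socs3, the feedback inhibitor that binds gp130, gave 3720, 5320 and 10200, which is 0.51 in tDC and 1.45 in mDC against imDC. Socs1 gave 237, 205 and 353 and was higher in mDC by 1.07 against imDC, or 0.75 without background correction.

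Of 13 genes listed as STAT3 targets 11 were detected. In tDC against imDC 1 of 11 was higher, Bcl3 (1.40), with a median of 0.24. Over all genes 2.88% were higher and 2.02% lower in that pair. In mDC against imDC 4 were higher and 0 lower, Timp1 (2.05), Socs3 (1.45), Bcl3 (1.12) and Junb (1.07), with a median of 0.60 against -0.01 over all genes. Over all genes 6.16% were higher there. Bcl3 fell under 2-fold without background correction (0.94) and with the authors' values (0.95). Several of the 4 are also known NF-kB targets. Of 10 genes listed for STAT5 and GM-CSF, all detected and Osm among them, 0 differed by 2-fold in tDC against imDC, with a median of 0.04. In mDC against imDC 3 were higher, Il2ra (1.93), the chemokine Ccl22 (1.73) and Ccnd2 (1.60), with a median of -0.04. Cish, a typical STAT5 target, gave 21800 on imDC, 26100 on tDC and 20500 on mDC.

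The differences of Il6 are set beside those of other inflammatory cytokines. In mDC minus tDC the difference was 2.22 for Il6, 0.42 for Tnf, 0.77 for Il1b and 1.38 for Il1a, whereas it was 4.14 for Il12a. In tDC minus imDC the values were 1.89 for Il6, 4.19 for Tnf, 2.81 for Il1b and 2.65 for Il1a. Il12a and Il23a, not detected on imDC, had bounds of 2.41 and 1.48 there, the latter 0.85 without background correction. In that pair 5 of 8 genes of this list were higher and 0 lower, where 2.88% of all genes were higher. Il10 was detected on mDC only and was higher there than on tDC by at least 2.07. In mDC against tDC 3 of 9 genes of this list were higher, Il12a, Il10 and Il1a, and 0 were lower, where 3.44% of all genes were higher. Tnf and Il1b thus differed more between imDC and tDC than between tDC and mDC, whereas the differences of Il6 were of similar size in both pairs.

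The labelled cell type was checked against marker genes, and markers of other cells moved between the arrays too. Over all genes 2.88% were higher and 2.02% lower in tDC against imDC, and 6.16% and 5.96% in mDC against imDC. In mDC against tDC these shares were 3.44% and 2.80%. Of 10 dendritic cell markers 9 were detected, Zbtb46 and Ccr7 on all 3 arrays, while Flt3 was detected on none and Cd209a on imDC only. Their summed normalized signal was 93800 on imDC, 101000 on tDC and 72300 on mDC, or 46400, 51000 and 40000 without Cd74. In tDC 2 were lower than in imDC, Itgax (-1.19), which encodes CD11c, and Cd209a (bound -1.21). In mDC 3 were lower, Itgax (-1.96), Cd209a (bound -1.17) and the class II gene H2-Ab1 (-1.04), and 1 was higher, Irf8 (1.13). Markers of neutrophils, which can make Osm, were detected for 11 of 12 genes. Their sum was 66200 on imDC, 124000 on tDC and 144000 on mDC, with 5 of 11 higher in tDC than in imDC, Csf3r among them, and 0 lower. Without Lcn2 it was 61200, 98000 and 79900, highest on tDC. In mDC against imDC 5 were higher and 1 lower, Cxcr2 (-2.14). In mDC against tDC 2 were higher, Lcn2 (1.31) and Camp (1.19), and 2 lower, Cxcr2 (-2.17) and Elane (-1.56), with a list median of -0.19. Markers of mast cells and basophils, which can make Il6 and Csf2, were detected for 7 of 10 genes, summed to 4430, 12600 and 33700, or 3220, 5340 and 7280 without Hdc. Of these 5 were higher in mDC than in imDC with 0 lower, and Mcpt4 and Tpsb2 were detected on no array. Macrophage and monocyte markers were detected for 6 of 10 and summed to 5830, 9870 and 28900, with C1qa detected on no array. Without Adgre1 the sum was 3820, 5600 and 12900. The genes of this list moved in opposite directions. The median in tDC minus imDC was -0.44, with 2 genes higher and 2 lower. In mDC against imDC Adgre1 (3.00) and Ly6c1 (2.93) were higher, and Mertk (-2.32), C1qb (bound -2.75) and C1qc (bound -1.73) were lower. The part of these cells in the levels of the members was not tested. T and NK cell markers, 3 of 9 detected, summed to 166, 291 and 303, or 67.5, 108 and 161 without Cd3d. Cd4, Cd8a and Ncr1 were detected on no array. B and plasma cell markers, 2 of 6 detected, summed to 165, 378 and 723, with Ms4a1, Pax5 and Jchain detected on none. Most of that sum was Cd79b, without which it was 40.8, 43.1 and 108. Stromal and endothelial markers, 2 of 8 detected, summed to 919, 1140 and 801, or 27.1, 27.5 and 153 without Pecam1. Col1a1 and Pdgfrb were detected on no array.

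The members' differences under each setting are plotted to show how far they move. Of the differences at 2-fold, those of Il6, Csf1 and Csf2 had the same sign and stayed past 2-fold wherever they could be computed, while Osm in tDC minus imDC lay on either side of it.

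**Figure D4:**
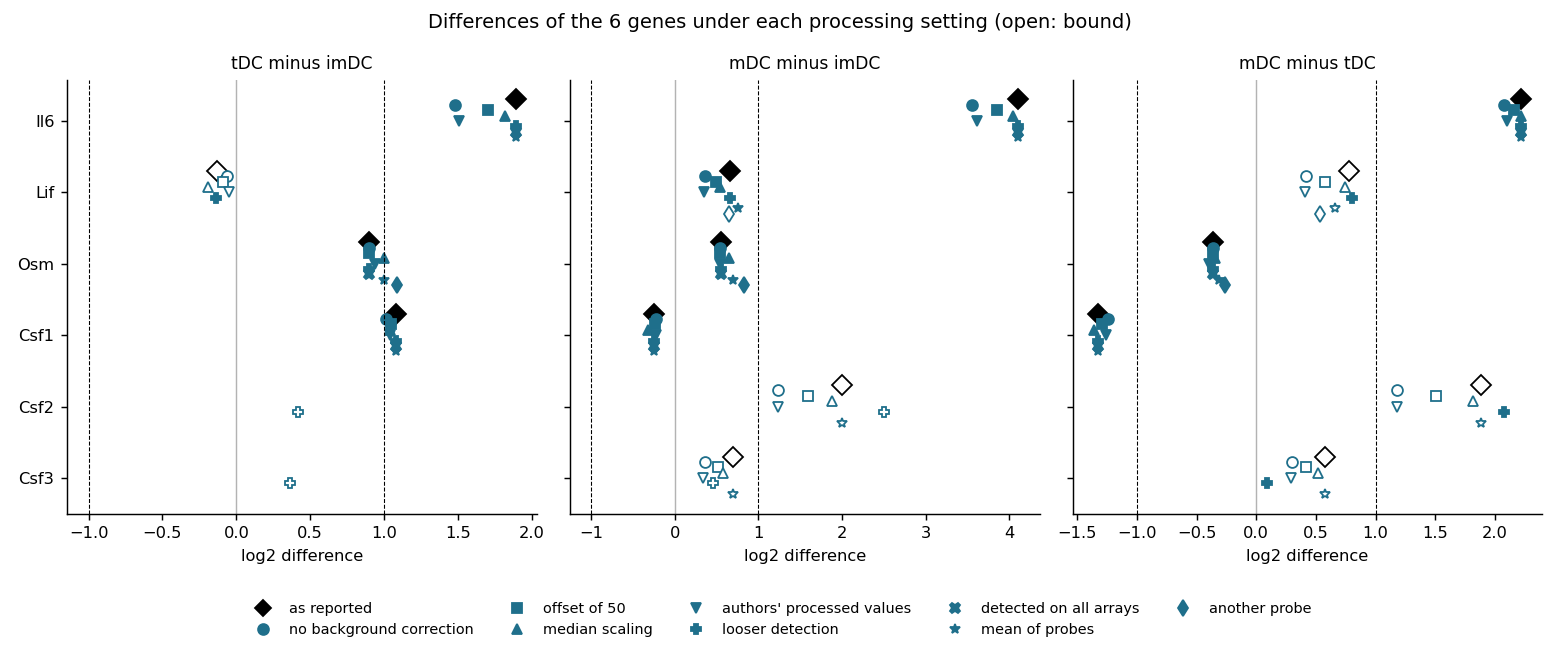
Log2 differences of the 6 genes (rows) in each pair of arrays under the reported setting (black) and 8 alternatives (blue), with open symbols for bounds and dashed lines at 2-fold. Osm in tDC minus imDC runs from 0.90 to 1.09 across the 2-fold mark, and the Csf2 bound in mDC minus imDC runs from 1.23 to 2.50.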

How the data were processed

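Expression was measured in 3 RNA samples, 1 each of imDC, tDC and mDC, grouped by the cell type in the labels. Average bead signals (linear intensity) and a detection p-value per probe and array were deposited, not normalized, per the file headers. The submitters' processing notes name GenomeStudio 2011.1. A table of log2 values deposited by the authors served as an alternative.

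Signals were background corrected by normexp, fitted through the detection p-values with offset 16, quantile normalized and put on a log2 scale (neqc, limma 3.58.1, R 4.3.3). Probes with detection p under 0.01 on at least 1 array were kept (11556 of 25697), and the probe with the highest mean stood for a gene. The annotation named 23978 probes with 1 symbol each and none with several, and 1719 are unnamed here; 23962 matched the RefSeq gene table. Where only 1 array of a pair detected a gene, a bound was set against the lowest detected value on the other, or its own value there if higher. No test was possible with single arrays. The steps were tested on simulated data. Changes were put only into probes of middle signal on imDC, and all were clearly past 2-fold. That test thus does not cover changes near 2-fold or changes in the faintest and brightest probes.

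All 6 members, the receptor lists, list genes at 2-fold (up to 4 per list and comparison) and the 3 nearest profiles of each member at 2-fold (predicted gene models left out) were named by rule. The undetected ligands and growth factors, Ebi3 in tDC, Stat3, Zfp36, Cish and the markers fall outside it and were named after their values were seen. Ets2, Cebpa, Nfkb2 and Fos, which reached 2-fold only under other settings, also fall outside it. The members and lists were chosen with earlier results of these data known.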

Additional observations from a re-analysis of the deposited data

How the results depend on the processing

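Of 109 differences of the members under other settings, 107 kept their direction and their side of 2-fold, and 39 of 42 counts of members were as reported. Median scaling gave 3 members higher in tDC against imDC in place of 2. Osm in tDC minus imDC reached 1.00 with median scaling and 1.09 with its other probe, against 0.90. Restricting genes to those detected on all arrays left 1 member higher in mDC against imDC and 1 in mDC against tDC, since Csf2 is then not among the genes kept. With detection at a p under 0.05 the other Csf3 probe stood for the gene, and the mDC minus tDC difference was 0.09 in place of a bound of 0.58. Background correction moved the counts over all genes most. Without it 148 genes were higher and 79 lower in tDC against imDC, in place of 227 and 159, and 132 in place of 219 were lower in mDC against tDC. The authors' processed values gave 85 lower in tDC against imDC and 136 lower in mDC against tDC. Of 462 counts of list genes 29 moved by over 1.5 times or between 0 and another count, which can be a shift of 1 gene. Of 1344 differences of list genes 23 went under 2-fold, 8 went past it and none at 2-fold changed sign. No paired analysis was possible because each group has 1 array. Signals of Lif, Csf3 and, on imDC and tDC, Csf2 near or under the lowest detected signals (155 to 160 units) limit what can be said of them. The marker sums without 1 gene were added after seeing the data.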
